A study of Homo sapiens with 6 samples.

Results

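ERK feedback and output genes are genes whose RNA is made when the RAS-RAF-MEK-ERK kinase cascade is active. They were followed here in the established human colorectal adenocarcinoma line HT29, on 6 expression arrays of bulk total RNA. The 10 genes were chosen by name as DUSP4, DUSP5, DUSP6, SPRY2, SPRY4, SPRED1, ETV4, ETV5, PHLDA1 and FOSL1, among 18417 genes with a probe set of a single gene symbol. The choice was made with earlier results of these data known. Each of the 10 had 1 such probe set, and all 10 lay above the level filter and were among the 13812 genes tested. Of the 6 arrays, 3 came from HT29 cells with a laminin α1 expression construct and 3 from HT29 cells with a control construct, all after 7 days of growth, and each array of a group was an independent culture passage per the series' design text. Neither the promoter of the construct nor how many clones make up a group is stated in the labels, so the errors below are the spread between passages. Values are log2 expression per probe set, so 1 unit is a doubling, and they compare a gene between arrays and not one gene with another.

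ERK is the last kinase of a cascade that carries signals from growth factor receptors through RAS, RAF and MEK to the nucleus. Active ERK raises the transcription of its own brakes: dual-specificity phosphatases that remove phosphate from ERK, and Sprouty and Spred proteins that restrain signalling at the level of receptor, RAS and RAF. It also raises transcription factors such as the ETS proteins ETV4 and ETV5 and the AP-1 subunit FOSL1. The RNA of such genes is widely read as a record of ERK output in tumour cells. In colorectal cancer the cascade is often held active by mutations, and HT29 carries an activating mutation of the kinase BRAF.

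LAMA1, the gene of the laminin α1 chain, had 5.79, 5.72 and 5.71 in laminin α1 arrays and 5.71, 5.63 and 5.60 in control arrays. The difference of 0.09 (SE 0.06) was not called by limma (adjusted p = 0.535). The signal lay at the 27.8th percentile of genes, and the labels do not say whether the probes match the construct, so LAMA1 is no check of the groups. All 13 colon epithelial markers looked at were above the level filter, with a median level at the 96.4th percentile. Of 11 markers of fibroblasts, blood cells and endothelium, 5 were below that filter and 0 of the other 6 passed the limma test, with 1 at an unadjusted p under 0.05. Of the 13 epithelial markers 5 were lower in laminin α1 arrays past the limma threshold and 0 were higher. Of all genes tested 2.59% were lower and 2.69% higher. CDH17, the cadherin of the intestine, had a log2 difference of -1.65. Its laminin α1 values of 4.81, 4.95 and 5.04 lay below the filter level of 5.50, so it was tested only through its control arrays. CEACAM5, GPA33 and KRT20 were next by p, at -1.17, -0.63 and -0.35.

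Of the 10 genes, DUSP4 and PHLDA1 were higher in laminin α1 arrays past the threshold, an adjusted p of 0.05 over all genes tested, and 0 were lower. The other 8 did not pass. Over all 13812 genes tested, 5.29% passed, 2.69% higher and 2.59% lower, in the limma fit. The calls were at most 1.36-fold in size, and both depended on the arrays included, as given with each gene. DUSP6, SPRY2 and ETV5 also had groups that did not overlap, with the laminin α1 arrays above the control arrays. In this way 5 of 10 genes had all laminin α1 arrays above all control arrays and 0 had the reverse, where 10.1% of all genes tested lay wholly above, 11.5% wholly below and 21.6% either way. The same 5 genes were those with an unadjusted p under 0.05, which 7.91% of all genes tested had in the upward direction and 16.7% in either direction. At an adjusted p under 0.1 the count of the 10 was also 2, against 7.65% of all genes, and under 0.01 it was 0, against 2.85%. The median log2 difference of the 10 was 0.15, from -0.11 to 0.45, against a median of -0.01 over all genes tested. As the 10 were chosen with earlier results known, these shares and medians describe them and are not an independent test.

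**Figure D1:**
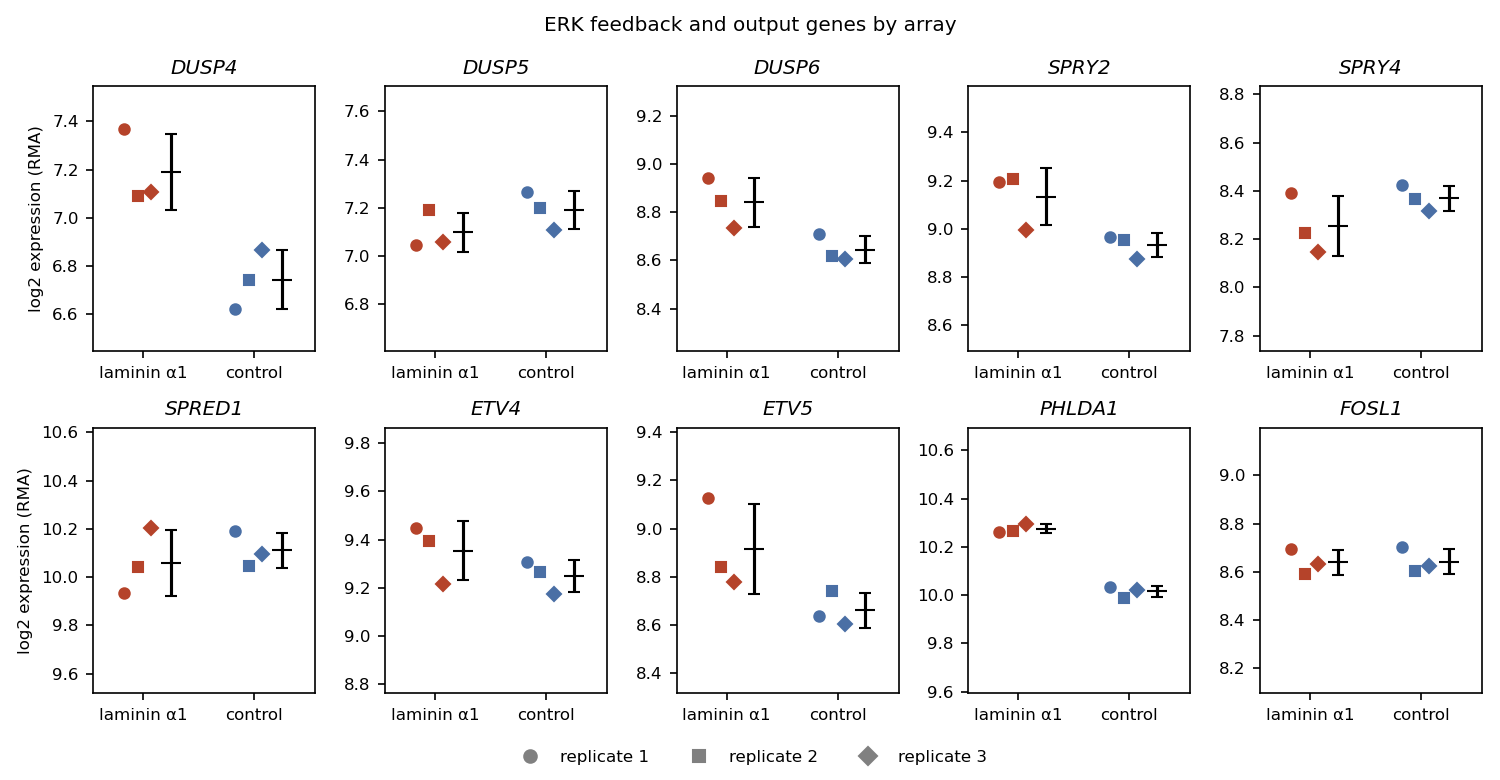
Log2 expression (RMA) of the 10 genes on each array, laminin α1 arrays in red on the left of each panel and control arrays in blue on the right, with symbols for the replicate number and black bars for the mean ± SD (n = 3). Every panel spans the same log2 range. DUSP4, DUSP6, SPRY2, ETV5 and PHLDA1 had all laminin α1 arrays above all control arrays, and the groups of the other 5 genes overlapped.

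The promoter search did not cover DUSP4, which passed, or DUSP5, ETV4, ETV5 and FOSL1. RefSeq promoter sequences of the build GRCh38.p14 ran from 250 bases before to 50 bases after a gene's start. Such sequences were searched for 5 of the 10 genes, SPRY2, SPRY4, SPRED1, DUSP6 and PHLDA1. Shown are PHLDA1, which passed, DUSP6, which did not pass but whose groups did not overlap, and SPRY4, whose groups overlapped. SPRY2, whose groups did not overlap either, and SPRED1, whose groups overlapped, are not shown. ERK acts on many of its target genes through ETS proteins bound near the start. Capitals mark CGGAAG, a longer form of the ETS core GGAA, on either strand. The shorter core was not searched or marked. Read on either strand, it also occurs outside the capitals in every sequence searched for CGGAAG, SPRY4 included. The sequences lie on the minus strand at chr12:76031727-76032026 for PHLDA1, chr12:89352452-89352751 for DUSP6 and chr5:142324198-142324497 for SPRY4.
PHLDA1: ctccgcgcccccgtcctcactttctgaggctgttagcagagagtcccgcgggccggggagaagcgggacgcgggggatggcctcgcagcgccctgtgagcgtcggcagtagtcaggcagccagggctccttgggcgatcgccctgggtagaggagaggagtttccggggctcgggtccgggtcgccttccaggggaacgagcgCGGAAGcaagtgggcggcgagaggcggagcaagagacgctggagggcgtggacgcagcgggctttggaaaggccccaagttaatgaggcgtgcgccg
DUSP6: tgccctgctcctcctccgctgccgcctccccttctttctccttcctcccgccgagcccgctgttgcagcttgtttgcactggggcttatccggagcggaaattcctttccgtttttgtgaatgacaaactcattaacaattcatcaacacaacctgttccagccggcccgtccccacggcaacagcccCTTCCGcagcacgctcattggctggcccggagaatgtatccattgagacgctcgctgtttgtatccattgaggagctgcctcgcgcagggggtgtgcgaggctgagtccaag
SPRY4: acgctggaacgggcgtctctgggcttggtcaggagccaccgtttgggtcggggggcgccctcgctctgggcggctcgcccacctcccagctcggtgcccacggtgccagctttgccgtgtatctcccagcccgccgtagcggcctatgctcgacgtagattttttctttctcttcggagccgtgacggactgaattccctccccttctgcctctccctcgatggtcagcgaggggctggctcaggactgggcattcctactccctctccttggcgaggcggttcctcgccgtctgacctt
The exact sequence CGGAAG was found once in PHLDA1, on the strand shown, and once in DUSP6, on the opposite strand. It had no match in the 5 other windows, which were 3 of SPRY2 and 1 each of SPRY4 and SPRED1. Of all 35116 promoters of this length, 19.5% held it. The AP-1 element TGANTCA, the cyclic AMP response element TGACGTCA and the CArG box of the serum response factor had no match in the 7 windows on either strand, and were in 7.71%, 1.85% and 1.29% of all promoters. None of the matches overlapped another motif searched. A match or its absence describes these letters in this window and is not evidence of a factor bound there.

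DUSP4, a nuclear phosphatase that inactivates ERK and other MAP kinases, had values of 7.37, 7.09 and 7.11 in laminin α1 arrays and 6.62, 6.74 and 6.87 in control arrays. All 3 laminin α1 arrays were above all control arrays, and laminin α1 replicate 1 stood highest. The log2 difference was 0.45 (SE 0.09), or 36.1% higher with a 95% interval of 17.7% to 57.4% (limma adjusted p = 0.0220). It was larger in size than the differences of 97.0% of all genes tested. The call was lost on leaving out control replicate 1, at an adjusted p of 0.0962, or control replicate 2, at 0.0910. It was also lost when all 33297 probe sets were tested together (adjusted p = 0.0892), where the difference itself did not change.

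DUSP5, a nuclear phosphatase selective for ERK, had 7.04, 7.19 and 7.06 in laminin α1 arrays and 7.27, 7.20 and 7.11 in control arrays. The groups overlapped. The log2 difference was -0.09 (SE 0.07, limma adjusted p = 0.594), and the 95% interval of the change ran from -16.1% to 4.76%. Without control replicate 1 the difference was -0.06, and without laminin α1 replicate 2 it was -0.14. DUSP6, the cytoplasmic phosphatase that acts mainly on ERK, had 8.94, 8.85 and 8.74 in laminin α1 arrays and 8.71, 8.62 and 8.61 in control arrays. The lowest laminin α1 array was just above the highest control array. The log2 difference of 0.20 (SE 0.07) did not pass (limma adjusted p = 0.192), and the 95% interval was 2.36% to 28.2%.

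SPRY2, a Sprouty protein that restrains receptor signalling to RAS, had 9.19, 9.21 and 8.997 in laminin α1 arrays and 8.97, 8.96 and 8.88 in control arrays. The laminin α1 arrays were all higher, with replicate 3 close to the control arrays. The log2 difference of 0.20 (SE 0.08) did not pass (limma adjusted p = 0.198), although it did without laminin α1 replicate 3 (adjusted p = 0.0446). SPRY4, a Sprouty protein of the same family, had 8.39, 8.22 and 8.15 in laminin α1 arrays and 8.42, 8.37 and 8.32 in control arrays. The groups overlapped, since laminin α1 replicate 1 lay among the control arrays. The log2 difference was -0.11 (SE 0.08, limma adjusted p = 0.525), with a 95% interval of -18.0% to 4.08%, and it was -0.18 without laminin α1 replicate 1 and -0.06 without laminin α1 replicate 3.

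SPRED1, which binds neurofibromin and brings it to RAS to switch RAS off, had 9.93, 10.04 and 10.20 in laminin α1 arrays and 10.19, 10.05 and 10.10 in control arrays. The groups overlapped, and the laminin α1 arrays spread to both sides of the control arrays. The log2 difference was -0.05 (SE 0.08, limma adjusted p = 0.828), with a 95% interval of -14.9% to 9.57%, and its sign turned to 0.01 without laminin α1 replicate 1.

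ETV4, an ETS factor of the PEA3 group that is induced by ERK, had 9.45, 9.40 and 9.22 in laminin α1 arrays and 9.31, 9.26 and 9.18 in control arrays. The groups overlapped, with laminin α1 replicate 3 between control replicates. The log2 difference was 0.11 (SE 0.08, limma adjusted p = 0.571), with a 95% interval of -4.60% to 21.3%, and it was 0.06 without laminin α1 replicate 1 and 0.17 without laminin α1 replicate 3. ETV5, of the same PEA3 group, had 9.13, 8.84 and 8.78 in laminin α1 arrays and 8.64, 8.74 and 8.61 in control arrays. The laminin α1 arrays were all higher, but replicate 1 was far above the other two. The log2 difference of 0.25 (SE 0.09) did not pass (limma adjusted p = 0.192) and was 0.15 without laminin α1 replicate 1.

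PHLDA1, a pleckstrin homology-like protein whose RNA is induced by growth factor signalling, had 10.26, 10.27 and 10.30 in laminin α1 arrays and 10.03, 9.99 and 10.02 in control arrays. The groups stood well apart and the arrays of each lay close together, with an SD of 0.018 in laminin α1 and 0.023 in control arrays (n = 3 each). The log2 difference was 0.26 (SE 0.06), or 19.7% higher with a 95% interval of 9.17% to 31.2% (limma adjusted p = 0.0328). The difference stayed between 0.25 and 0.27 whichever array was left out. The call was nevertheless lost with each of the 6 arrays left out in turn (adjusted p = 0.0508 to 0.182), and with all probe sets tested together (adjusted p = 0.0690).

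FOSL1, the AP-1 subunit FRA1, had 8.70, 8.59 and 8.63 in laminin α1 arrays and 8.70, 8.60 and 8.62 in control arrays. The values of the groups were nearly the same, and the log2 difference of -0.0031 (SE 0.06) had no stable sign, as it turned positive with arrays centred on their medians. The limma adjusted p was 0.989, and the 95% interval of the change ran from -9.71% to 10.3%.

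**Figure D2:**
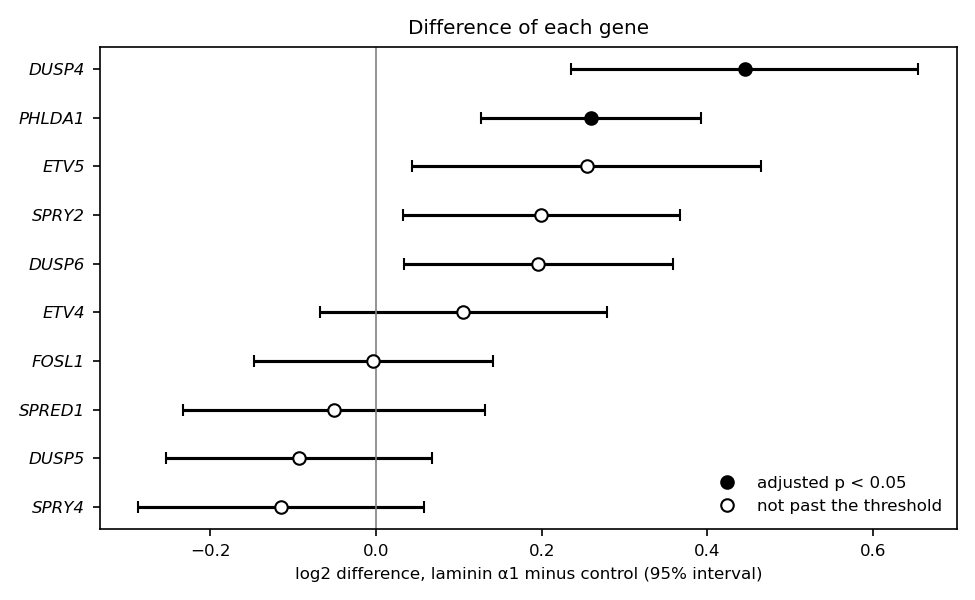
Log2 difference, laminin α1 minus control, of each of the 10 genes with its 95% interval from limma (n = 3 arrays per group). Filled points passed an adjusted p of 0.05. DUSP4 and PHLDA1 are filled, and the intervals of ETV5, SPRY2 and DUSP6 lie above 0 without passing after adjustment.

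Arrays of one group also differed among themselves. Averaged over the 10 genes and set against each gene's control mean, the log2 deviation was 0.19, 0.11 and 0.06 in laminin α1 arrays 1, 2 and 3, and 0.03, -0.0034 and -0.03 in control arrays 1, 2 and 3. Replicate 1 was the highest array of its group for 6 of the 10 genes in the laminin α1 group and for 8 of the 10 in the control group, and the lowest for 3 and 1 of them. Over all genes tested, replicate 1 was the highest of its group for 43.2% in the laminin α1 group and 48.8% in the control group. The labels give no reason for an order among replicates. With the replicate number as a term in the limma fit, DUSP4 and PHLDA1 were again the genes of the 10 that passed.

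The ratio of 2 genes within each array was used to ask whether members of one family changed unequally. Exact two-sided permutation tests of 3 against 3 arrays cannot give a p below 0.1, so none of the 7 pairs compared could pass. How often ratios of other gene pairs separate the groups was not tested. Of single genes tested, 21.6% had groups that did not overlap. The log2 ratio of DUSP4 to DUSP5 was 0.32, -0.10 and 0.05 in laminin α1 arrays and -0.64, -0.46 and -0.24 in control arrays. All laminin α1 ratios were above all control ratios, a difference of 0.54 (exact permutation p = 0.1, adjusted p = 0.233 over the 7 pairs). The log2 ratio of SPRY4 to SPRY2 was -0.80, -0.98 and -0.85 in laminin α1 arrays and -0.54, -0.59 and -0.56 in control arrays. Here all laminin α1 ratios were below all control ratios, a difference of -0.31 (exact permutation p = 0.1, adjusted p = 0.233). The log2 ratio of DUSP5 to DUSP6 also separated the groups, at -1.90, -1.65 and -1.68 in laminin α1 arrays and -1.44, -1.42 and -1.50 in control arrays (difference -0.29, exact permutation p = 0.1, adjusted p = 0.233). The ratios of DUSP4 to DUSP6, SPRED1 to SPRY2, SPRED1 to SPRY4 and ETV5 to ETV4 overlapped between the groups. Their differences were 0.25, -0.25, 0.06 and 0.15, with exact permutation p values of 0.2, 0.2, 0.7 and 0.2. With 1 array left out in turn these ran from 0.16 to 0.33, from -0.39 to -0.16, from -0.06 to 0.20 and from 0.09 to 0.21.

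**Figure D3:**
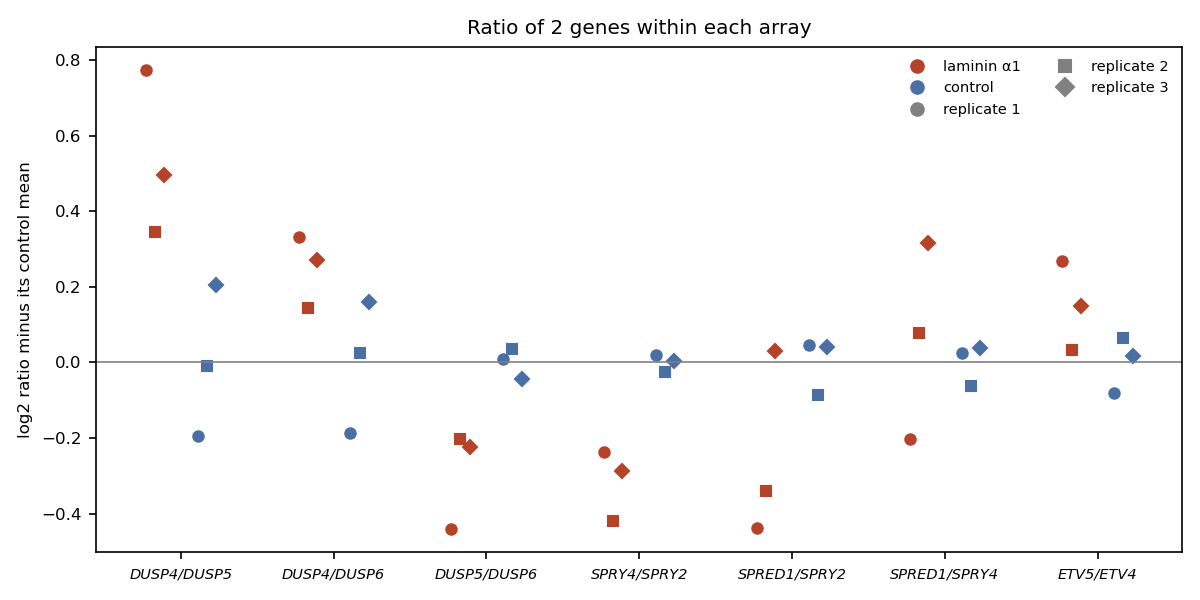
Log2 ratio of 2 genes of a family within each array, minus the mean ratio of the control arrays, with laminin α1 arrays in red left of control arrays in blue and symbols for the replicate number. The groups do not overlap for DUSP4/DUSP5, DUSP5/DUSP6 and SPRY4/SPRY2, and overlap for the other 4 pairs.

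Other genes of the pathway were read from 7 further lists. For comparison with the counts that follow, 2.69% of all genes tested were higher and 2.59% lower past the limma threshold. An unadjusted p under 0.05 was reached by 16.7% in either direction. Among other MAP kinase phosphatases, 6 of 7 were tested and 0 passed in either direction in the limma fit, with 0 at an unadjusted p under 0.05. Their differences ran from -0.06 to 0.03, and DUSP1, the early response phosphatase of p38, JNK and ERK, had -0.06. Among other Sprouty, Spred and RAS-ERK inhibitors, 1 of 13 tested was higher and 0 were lower. The 1 was RASA3, a GTPase-activating protein that switches off RAS and RAP1, with 8.66, 8.58 and 8.48 in laminin α1 arrays and 8.06, 7.99 and 7.84 in control arrays. Its groups were well apart, with a log2 difference of 0.61 (SE 0.08) or 1.52-fold (limma adjusted p = 0.00139). SPRY1, a Sprouty protein not among the 10 genes, had a difference of 0.23 (SE 0.06) with groups that did not overlap and did not pass (limma adjusted p = 0.0715). SPRY3, another Sprouty protein outside the 10, had a difference of -0.05 with groups that overlapped (limma adjusted p = 0.768).

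The ETS and AP-1 families of transcription factors were read next. Of 11 other ETS factors tested 0 passed in the limma fit, 0 of them at an unadjusted p under 0.05, with differences from -0.14 to 0.09. Of 10 other AP-1 subunits 0 passed, with 1 at an unadjusted p under 0.05. That 1 was FOS, the AP-1 subunit induced within minutes of ERK activation, at a difference of -0.35 (SE 0.12, limma adjusted p = 0.169). It is named after its value was seen.

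Of 26 tested genes of early response and ERK output outside the 10, 2 were higher, 0 were lower and 24 did not pass. IER3, an early response gene that acts on cell survival, had 10.89, 10.72 and 10.64 in laminin α1 arrays and 9.93, 9.84 and 9.95 in control arrays. Its laminin α1 arrays were far above the control arrays, a log2 difference of 0.84 (SE 0.08, limma adjusted p = 0.000132). KLF6, a zinc finger factor of the early response, had a difference of 0.28 (SE 0.07, limma adjusted p = 0.0419). EGR1, the early growth response factor that ERK induces through ELK proteins, had 9.15, 9.16 and 8.98 in laminin α1 arrays and 9.42, 9.47 and 9.30 in control arrays. All laminin α1 arrays were below all control arrays, and the difference of -0.30 (SE 0.08) did not pass (limma adjusted p = 0.0526). The cell cycle and growth genes CCND1 and MYC had differences of -0.04 and -0.05 and did not pass. EGR1, CCND1 and MYC were picked out after their values were seen.

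Of the cascade itself, from adaptors and RAS proteins to ERK and the kinases it acts on, 0 of 20 tested genes passed in the limma fit, 3 of them at an unadjusted p under 0.05, with differences from -0.22 to 0.16. Among 7 tested EGF receptor family genes and ligands 1 was lower and 0 were higher. EREG, a ligand of the EGF receptor, had 9.30, 9.48 and 9.56 in laminin α1 arrays and 10.22, 10.30 and 10.19 in control arrays, a difference of -0.79 (SE 0.08, limma adjusted p = 0.000235). TGFA, another ligand of that receptor, had a difference of 0.27 (SE 0.07, limma adjusted p = 0.0651) and did not pass, and EGFR itself had -0.04. DUSP1, SPRY1, SPRY3, TGFA and EGFR were likewise picked out with their values in view. The median differences of the 7 lists lay between -0.04 and 0.03, against 0.15 for the 10 genes. As the 10 genes and the lists were chosen with earlier results known, these medians are a description and not a test.

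**Figure D4:**
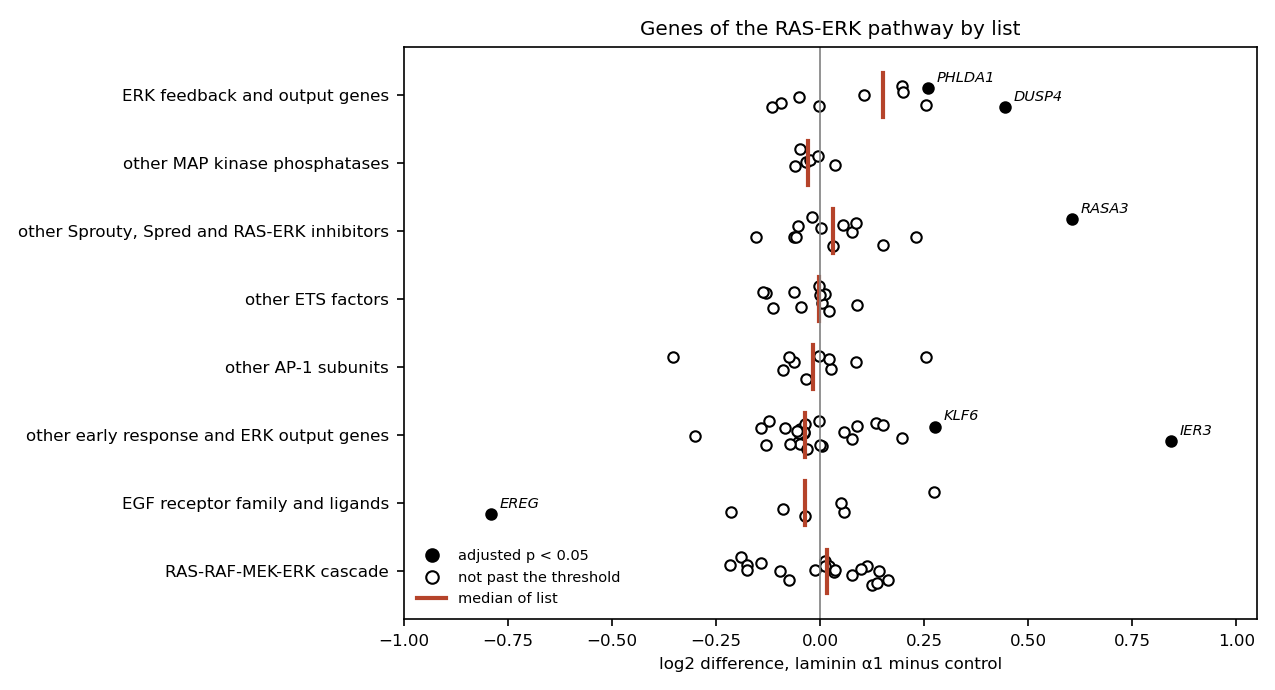
Log2 difference, laminin α1 minus control, of every tested gene in the 10 genes and 7 further lists of the pathway, one list per row, with filled points past an adjusted p of 0.05, open points not past it, and a red bar at the median of the list. IER3, RASA3 and EREG lie farther from 0 than DUSP4, and most other genes lie close to 0.

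The genes whose 6 array values were most like those of DUSP4, by Pearson correlation over the 6 arrays, were RHEB, SLC17A5 and CRACD, with r of 0.998, 0.995 and 0.993. Of these SLC17A5 was higher past the threshold, at a difference of 0.41 (limma adjusted p = 0.0159), while RHEB and CRACD had 0.11 and 0.15 and did not pass. For PHLDA1 they were FRY, SLC28A3 and MAP3K1, with r of 0.996 for each, and differences of 1.29, 0.71 and 0.79. All 3 were higher past the threshold. With 2 groups and 6 arrays many genes resemble a called gene, and 64 genes had r over 0.95 with DUSP4 and 175 with PHLDA1, so these are descriptions of likeness.

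The nearest tested genes along the chromosome were also read, after the data had been seen. Of the 3 on each side of DUSP4 on chromosome 8, from INTS9 to DCTN6, the differences ran from -0.14 to 0.02 and 0 passed. Of the 3 on each side of PHLDA1 on chromosome 12, from CAPS2 to OSBPL8, they ran from -0.12 to 0.18 and 0 passed. DUSP4 and PHLDA1 were thus higher without a call among these neighbours in the limma fit.

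**Figure D5:**
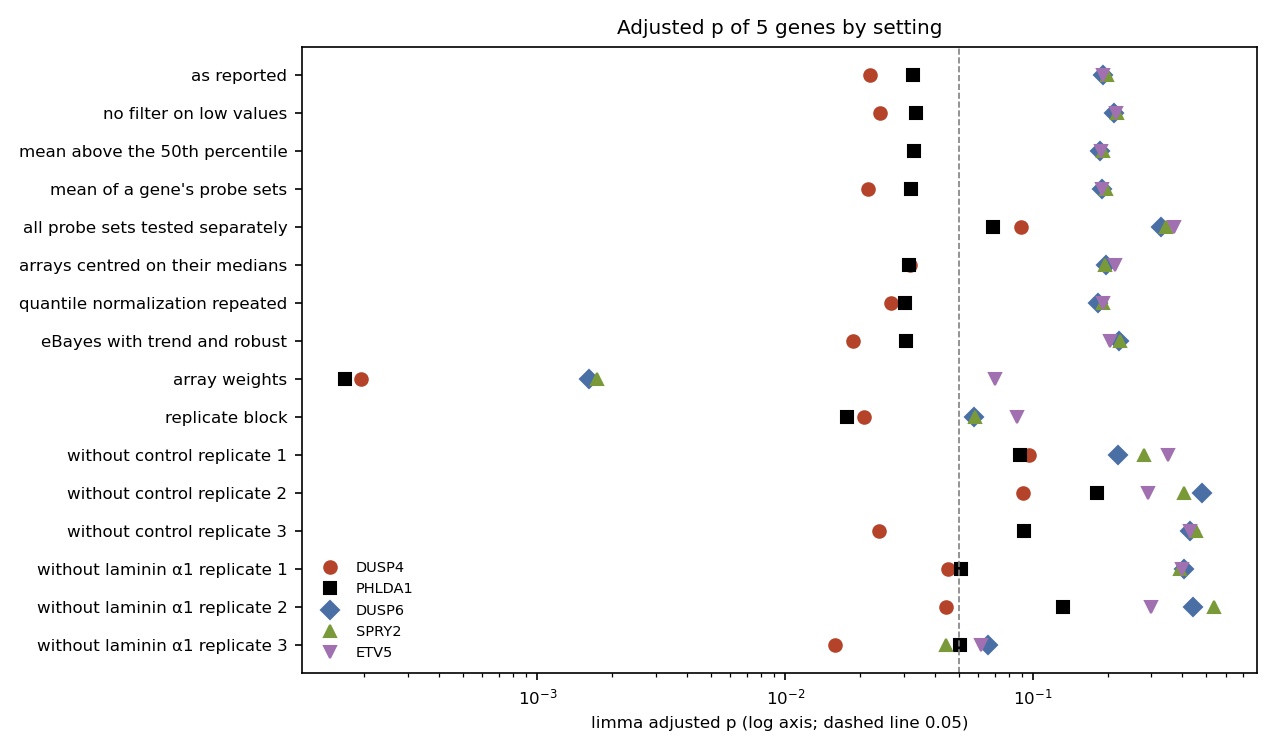
Limma adjusted p on a log axis of DUSP4, PHLDA1, DUSP6, SPRY2 and ETV5 as reported and under each other setting, with a dashed line at 0.05. DUSP4 has no point for the filter at the 50th percentile, since its level lies below it. The points of PHLDA1 lie right of the line in all 6 settings that leave out an array, and those of DUSP4 in 2 of them.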

How the data were processed

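The authors deposited log2 expression values for 33297 probe sets on 6 arrays. The tools were RMA and Affymetrix Expression Console 1.1 (per the submitters' processing notes). The RMA method subtracts background, equalises the distributions of the arrays and summarises probes, so a shift of all genes together cannot be seen. The values ran from 2.40 to 13.9, with array medians of 6.45 to 6.49. They were used as deposited and taken as single-channel values, although the labels name the dye Cy3 beside an Affymetrix protocol. Genes were named from the platform annotation: 19460 probe sets had 1 symbol, 1754 several and 12083 no entry. Per gene the brightest single-symbol probe set was kept, and genes with a mean above the 25th percentile, log2 5.50, were tested.

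Laminin α1 minus control was fitted on 3 against 3 arrays with limma 3.58.1 in R 4.3.3 (lmFit, eBayes, no covariates), with Benjamini-Hochberg adjustment over all 13812 genes. The number of arrays limits precision, and the median SE was 0.0754. The fit was run on simulated data as a check of the code. The noise there was independent between arrays, so that run does not bear on the reliability of the calls above. As bulk RNA was measured, fewer cells expressing a gene and less RNA per cell cannot be told apart. The genes named are the 10, up to 4 called genes per list by smallest p, and the 3 most alike to each called gene, with exceptions marked. The 10 genes and the lists were chosen with earlier results of these data known. Listed genes without a single-symbol probe set were not analysed here. Alternatives covered filters, probe set choice, scaling, variance model, replicate block, thresholds and arrays left out.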

Additional observations from a re-analysis of the deposited data

How the results depend on the processing

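The 10 genes had 2 calls as reported, and the count was also 2 with no level filter, probe sets averaged per gene, arrays centred on their medians, a second quantile normalization, eBayes with trend and robust options, the replicate block and an adjusted p under 0.1. It was 1 with the filter at the 50th percentile, where DUSP4 was not tested, 0 with all probe sets tested together, 0 at an adjusted p under 0.01 and 0 to 2 with 1 array left out. Array weights gave 6 calls, adding DUSP6, SPRY2 and ETV4 (higher) and SPRY4 (lower). Their estimation stopped before convergence, with a weight of 10.7 for control replicate 2 and 0.317 to 3.03 for the laminin α1 arrays. All genes gave 730 calls as reported, 4691 with array weights, 1596 with the replicate block and 407 to 1214 with 1 array left out, lowest without control replicate 2 (407) and laminin α1 replicate 2 (429) and highest without laminin α1 replicate 3. For the block, deviations of same-numbered arrays correlated at 0.390, 0.0216 and 0.530 over genes. Laminin α1 replicate 1 with control replicate 3 had -0.435, and laminin α1 replicate 3 with control replicate 1 had -0.487. Replicates 1 and 3 thus resembled the same number in the other group, while laminin α1 replicate 2 was closer to control replicate 1 (0.162). The design text states no pairing, so the fit as reported had no replicate block. Signs reversed only for FOSL1, to 0.0029 with arrays centred and from -0.0314 to 0.0264 with 1 array left out, for SPRED1 (-0.122 to 0.0130), neither called in any setting, and for the SPRED1 to SPRY4 ratio (-0.0617 to 0.197). The smallest exact permutation p, 0.1, and 3 arrays per group limit what could be detected.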
